A study of Homo sapiens with 12 samples.

Results

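The replication-dependent histone genes supply the histones that package new DNA. Members were taken as the RefSeq GRCh38 protein-coding genes whose symbol is H2AC, H2BC, H3C or H4C followed by a number, or H1-1 to H1-6. That gave 70 of the 20037 protein-coding genes on 24 chromosomes, namely 6 H1, 17 H2A, 19 H2B, 13 H3 and 15 H4 genes. Of these, 55 lie on chromosome 6, 13 on chromosome 1, and 1 each on chromosome 12 (H4C16) and chromosome 21 (H2BC12L). The rule goes by symbol, so it also takes H2AC1, H2BC1 and H1-6, which are known as testis histone genes, and the region lists do not show which members are expressed in S phase.

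The study applied ATAC-seq, in which a transposase cuts and tags DNA that it can reach, to the established cell line 22Rv1, which comes from a human prostate carcinoma and is labelled wild type throughout. There were 12 samples in 4 groups of 3, described as biological triplicates, each kept for 6 h in vehicle, in enzalutamide at 1 µM, in OSU-ERb-12 at 100 nM, or in OSU-ERb-12 plus enzalutamide, whose own labels give no doses. Enzalutamide is an antagonist of the androgen receptor, and OSU-ERb-12 is known as a selective agonist of oestrogen receptor beta. What was analysed are 3 deposited lists of regions from nucleosome-free fragments, namely the enzalutamide list (25317 regions), the OSU-ERb-12 list (17931) and the combination list (6248). The lists hold positions alone, with no value per sample and no column of signs. The names of all 3 lists carry the tag neg, which could mark a direction (lower accessibility) but which no source used here defines. No direction was therefore assigned: a listed region may have gained or lost accessibility, and a gene without one may still have changed. Replicate error could not be computed, sequencing depth is unknown, and no test between treatments was possible. The lists were taken to be comparisons with the same vehicle samples. The vehicle samples have no list of their own, so the background here is the share of all protein-coding genes counted in the same way. Of 8 genes that mark luminal prostate cells and this line, 7 held an enzalutamide region in the gene body plus 10 kb (58.3% of all genes), 2 a combination region (21.7%) and 6 an OSU-ERb-12 region (39.1%), which says nothing of their expression and does not check the cell type.

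Histone proteins form the nucleosome, around which DNA winds: a pair each of H2A, H2B, H3 and H4 makes the core and H1 binds the linker DNA. Replication-dependent genes are short, mostly without introns, lie in clusters, and are transcribed mainly in S phase at a nuclear structure called the histone locus body. Their mRNAs end in a conserved stem-loop instead of a poly(A) tail, and many H2A and H2B genes stand head to head with a shared promoter. Their median length here was 494 bp, against 24115 bp for all protein-coding genes, and 8 of the 70 gene models exceeded 1 kb.

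At the ends of histone genes the enzalutamide list held most of the regions. A region lay within 1 kb of either gene end at 23 of the 70 genes (32.9%) for enzalutamide, where 28.3% of all protein-coding genes had one. For OSU-ERb-12 the count was 8 (11.4%, background 7.88%) and for the combination 4 (5.71%, background 5.51%). The histone shares were a few percentage points above the background for the single agents and level with it for the combination. These 23, 8 and 4 genes rested on 22, 5 and 4 distinct regions, since a region between neighbours can count for more than 1 gene. In the wider locus, the gene body plus 10 kb on either side, 54 genes (77.1%) held an enzalutamide region against 58.3% of all genes, 22 (31.4%) an OSU-ERb-12 region against 39.1%, and 10 (14.3%) a combination region against 21.7%. Histone loci are neighbours, so 1 region counts for several genes: the 54, 22 and 10 genes rested on 28, 9 and 6 distinct regions. When each region counted only for the nearest protein-coding gene, 22, 7 and 5 histone genes were left.

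**Figure D1:**
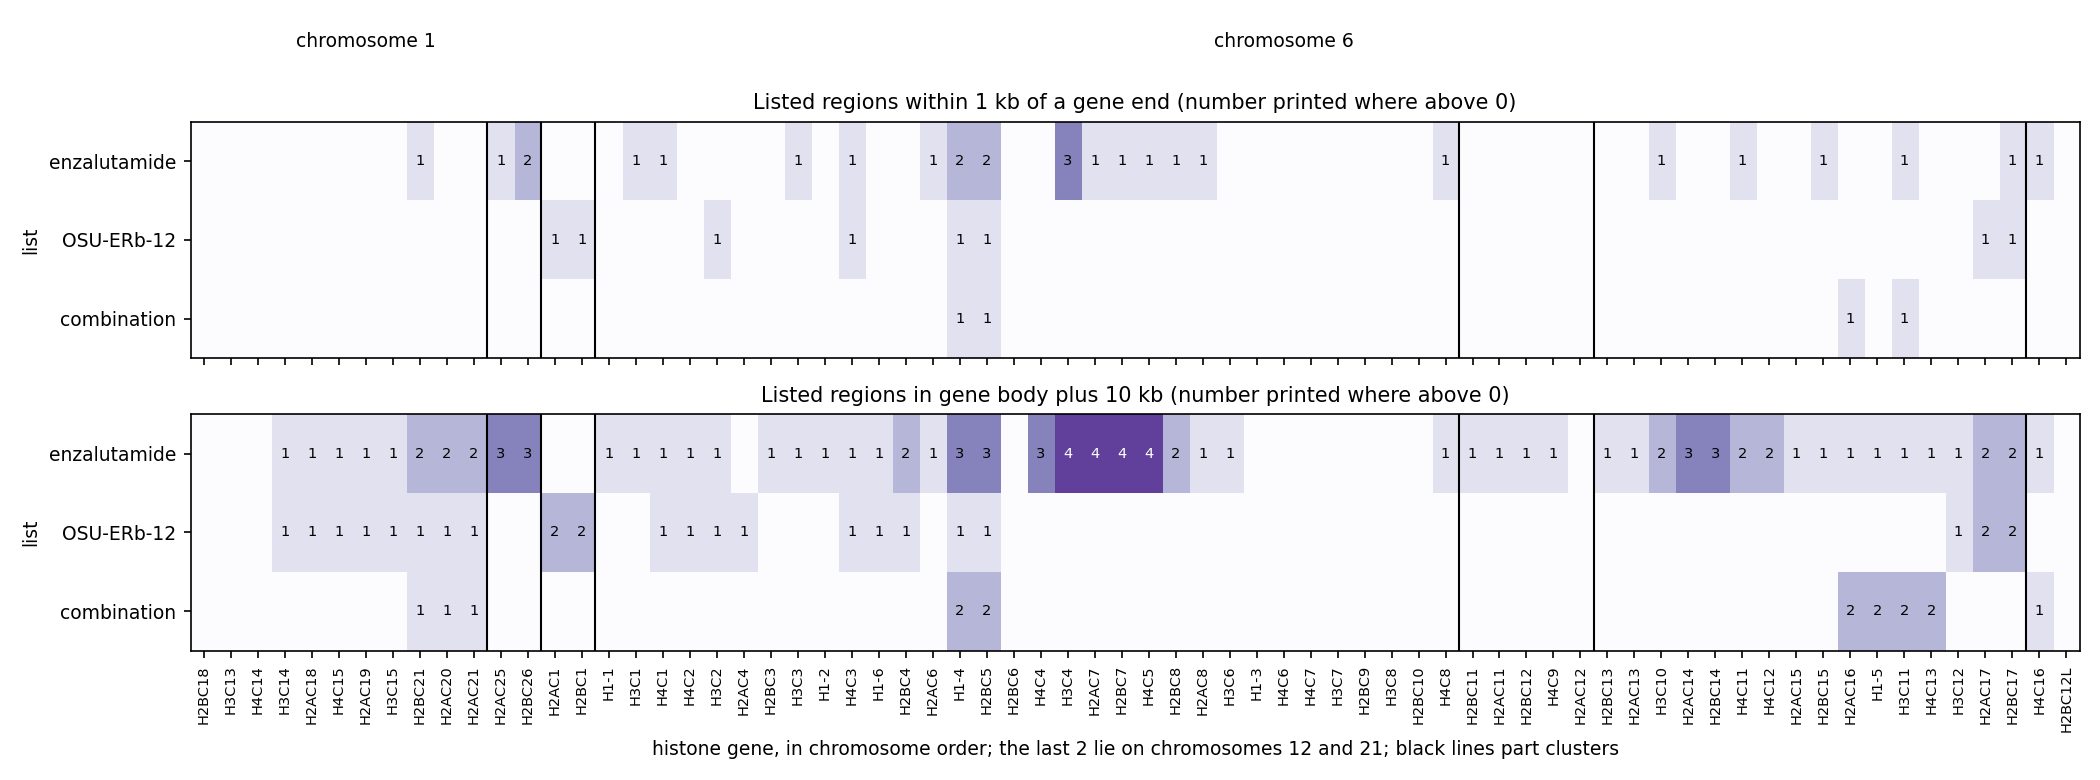
Number of listed regions within 1 kb of a gene end (top) and in the gene body plus 10 kb (bottom) for each of the 70 histone genes in chromosome order, with 1 strip per list and black lines between clusters. Enzalutamide regions lie in most clusters, OSU-ERb-12 and combination regions at few genes, and H1-4 and H2BC5 carry gene-end regions of all 3 lists.

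Counted per length of DNA, enzalutamide regions were denser at histone genes than at other genes. The windows of 1 kb at histone gene ends, 149 kb when overlaps are counted once, held 147 enzalutamide regions per Mb (exact Poisson 95% interval 92.3 to 223) against 77.8 at the ends of all other protein-coding genes. For OSU-ERb-12 the density was 33.5 per Mb (10.9 to 78.2) against 19.9, and for the combination 26.8 (7.3 to 68.6) against 13.3, and these intervals contain the value for other genes. Over whole loci, 590 kb in all, the densities were 47.4 (31.5 to 68.6), 15.2 (6.97 to 28.9) and 10.2 (3.73 to 22.1) per Mb, against 11.8, 7.6 and 2.86 for other genes. Histone genes are short, with a median locus of 20.5 kb against 44.3 kb for the others, so a larger part of each locus lies near a gene end. The windows at gene ends are unlike too, since in a short gene the window at the 3' end also lies near the start. Among all genes with a strand, an enzalutamide region centre lay within 1 kb before the 5' end at 11.3%. Within 1 kb past the 3' end the share was 2.34%. The part of this in the densities was not tested. The intervals cover the counting of regions only, and regions that cluster are not independent.

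**Figure D2:**
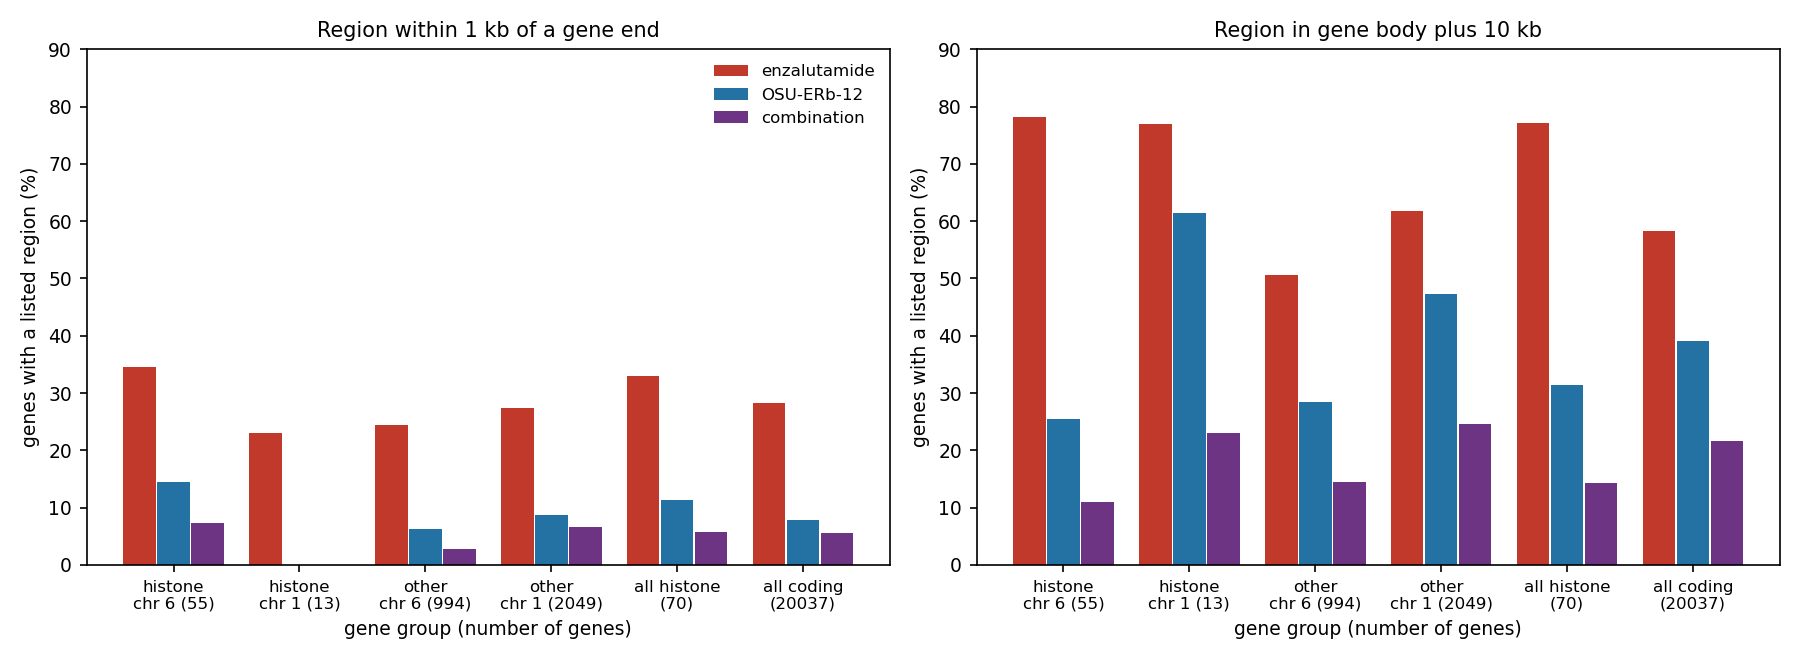
Share of genes (%) with a listed region within 1 kb of a gene end (left) and in the gene body plus 10 kb (right), for histone genes of chromosomes 6 and 1, the other protein-coding genes of those chromosomes, all histone genes and all protein-coding genes; colours are the 3 lists. Histone genes of chromosome 1 have no gene-end region of OSU-ERb-12 or the combination. Their locus share for OSU-ERb-12 (61.5%), which rests on 2 regions, is higher than that of chromosome 6 (25.5%).

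The chromosome 6 genes spread over 2188 kb including 10 kb at each side, and the extent also holds 20 other protein-coding genes and 100 tRNA genes. The 4 groups of neighbours within it are the pair H2AC1 and H2BC1 (25726063 to 25727345), a block of 32 genes from H1-1 to H4C8 (26017032 to 26285534), 5 genes from H2BC11 to H2AC12 (27132316 to 27147562) and 16 genes from H2BC13 to H2BC17 (27807479 to 27893891). Chromosome 1 has 11 genes from H2BC18 to H2AC21 (149782689 to 149887965) and, far from these, the pair H2AC25 and H2BC26 (228457364 to 228458558). All coordinates are on GRCh38.

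On chromosome 6, 19 of 55 histone genes (34.5%) had an enzalutamide region at a gene end, against 24.4% of the 994 other genes of the chromosome. OSU-ERb-12 regions lay at the ends of 8 (14.5%, others 6.24%) and combination regions at the ends of 4 (7.27%, others 2.72%). These 19, 8 and 4 chromosome 6 genes rested on 18, 5 and 4 distinct regions. On chromosome 1 the counts were 3 of 13 (23.1%, others 27.4%) for enzalutamide and 0 for each of the other lists (others 8.74% and 6.59%). In the loci the order was the reverse for OSU-ERb-12, with a region at 8 of 13 chromosome 1 genes (61.5%, others 47.2%) and 14 of 55 chromosome 6 genes (25.5%, others 28.4%). It was also the reverse for the combination, with 3 of 13 (23.1%, others 24.6%) and 6 of 55 (10.9%, others 14.5%). The 8 chromosome 1 genes with an OSU-ERb-12 region in the locus rested on 2 regions in the H2BC18 to H2AC21 cluster, 1 of which counted for 5 genes and the other for 3. The 3 combination genes of chromosome 1 rested on 1 region. With each region counted once, the order was not reversed. Histone loci held 17.2 OSU-ERb-12 regions per Mb on chromosome 6 (exact Poisson 95% interval 6.93 to 35.5) and 14 on chromosome 1 (1.69 to 50.4). Other loci of these chromosomes held 4.15 and 11.6. For the combination the densities were 9.85 (2.68 to 25.2) and 6.98 (0.177 to 38.9), and other loci held 1.65 and 3.97. In both lists the intervals of the 2 chromosomes overlap. The enzalutamide shares of loci were nearly the same on both chromosomes, 78.2% and 76.9%. Per length, histone loci held 51.7 enzalutamide regions per Mb on chromosome 6 (exact Poisson 95% interval 32 to 79; other loci of the chromosome 9.58) and 41.9 on chromosome 1 (15.4 to 91.2; other loci 14.5), and these intervals overlap. The difference between the chromosomes was not tested, since genes of a cluster are not independent.

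The block from H1-1 to H4C8 held 13 enzalutamide, 3 OSU-ERb-12 and 2 combination regions, all of them within 1 kb of a histone gene end. The block from H2BC13 to H2BC17 held 7, 2 and 2, and all 16 of its genes had an enzalutamide region in the locus. Of the 5 genes from H2BC11 to H2AC12, 4 shared 1 enzalutamide region, 2515 bp from H2BC11. The pair H2AC1 and H2BC1 had 2 OSU-ERb-12 regions and none of the other lists. Both of these regions also lie inside the protein-coding gene SLC17A1 (25723743 to 25832052), which spans the pair. Within the block of 32 genes, 7 neighbours over 39.2 kb (H1-3, H4C6, H4C7, H3C7, H2BC9, H3C8 and H2BC10) had no region of any list in the locus. The same held for H2BC6 and H2AC12 on chromosome 6, for H2BC18, H3C13 and H4C14 on chromosome 1 and for H2BC12L on chromosome 21, which makes 13 genes (18.6%) against 29.3% of all protein-coding genes.

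Across the whole chromosome 6 extent there were 56 enzalutamide regions (25.6 per Mb; whole chromosome 7.52), 14 OSU-ERb-12 regions (6.4 per Mb; 3.73) and 11 combination regions (5.03 per Mb; 1.25). Only 21, 7 and 4 of these lay in histone loci. Of the 35 enzalutamide regions elsewhere in the extent, 22 lay within 1 kb of a tRNA gene, as did 4 of 7 combination and 3 of 7 OSU-ERb-12 regions. The share of each whole list near tRNA genes, and of the extent near its 100 tRNA genes, was not counted. These counts therefore have no background. Among the 20 other protein-coding genes there, 6 had an enzalutamide region at a gene end, 1 an OSU-ERb-12 region (ABT1) and none a combination region. These shares, 30% and 5% for the single agents, are near the 28.3% and 7.88% of all genes. The 6 were BTN3A2, SLC17A4, ZNF184, ZNF322, POM121L2 and its overlapping neighbour LOC105375107. HFE, which regulates iron uptake and lies inside the block of 32 histone genes, had no region at its ends.

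**Figure D3:**
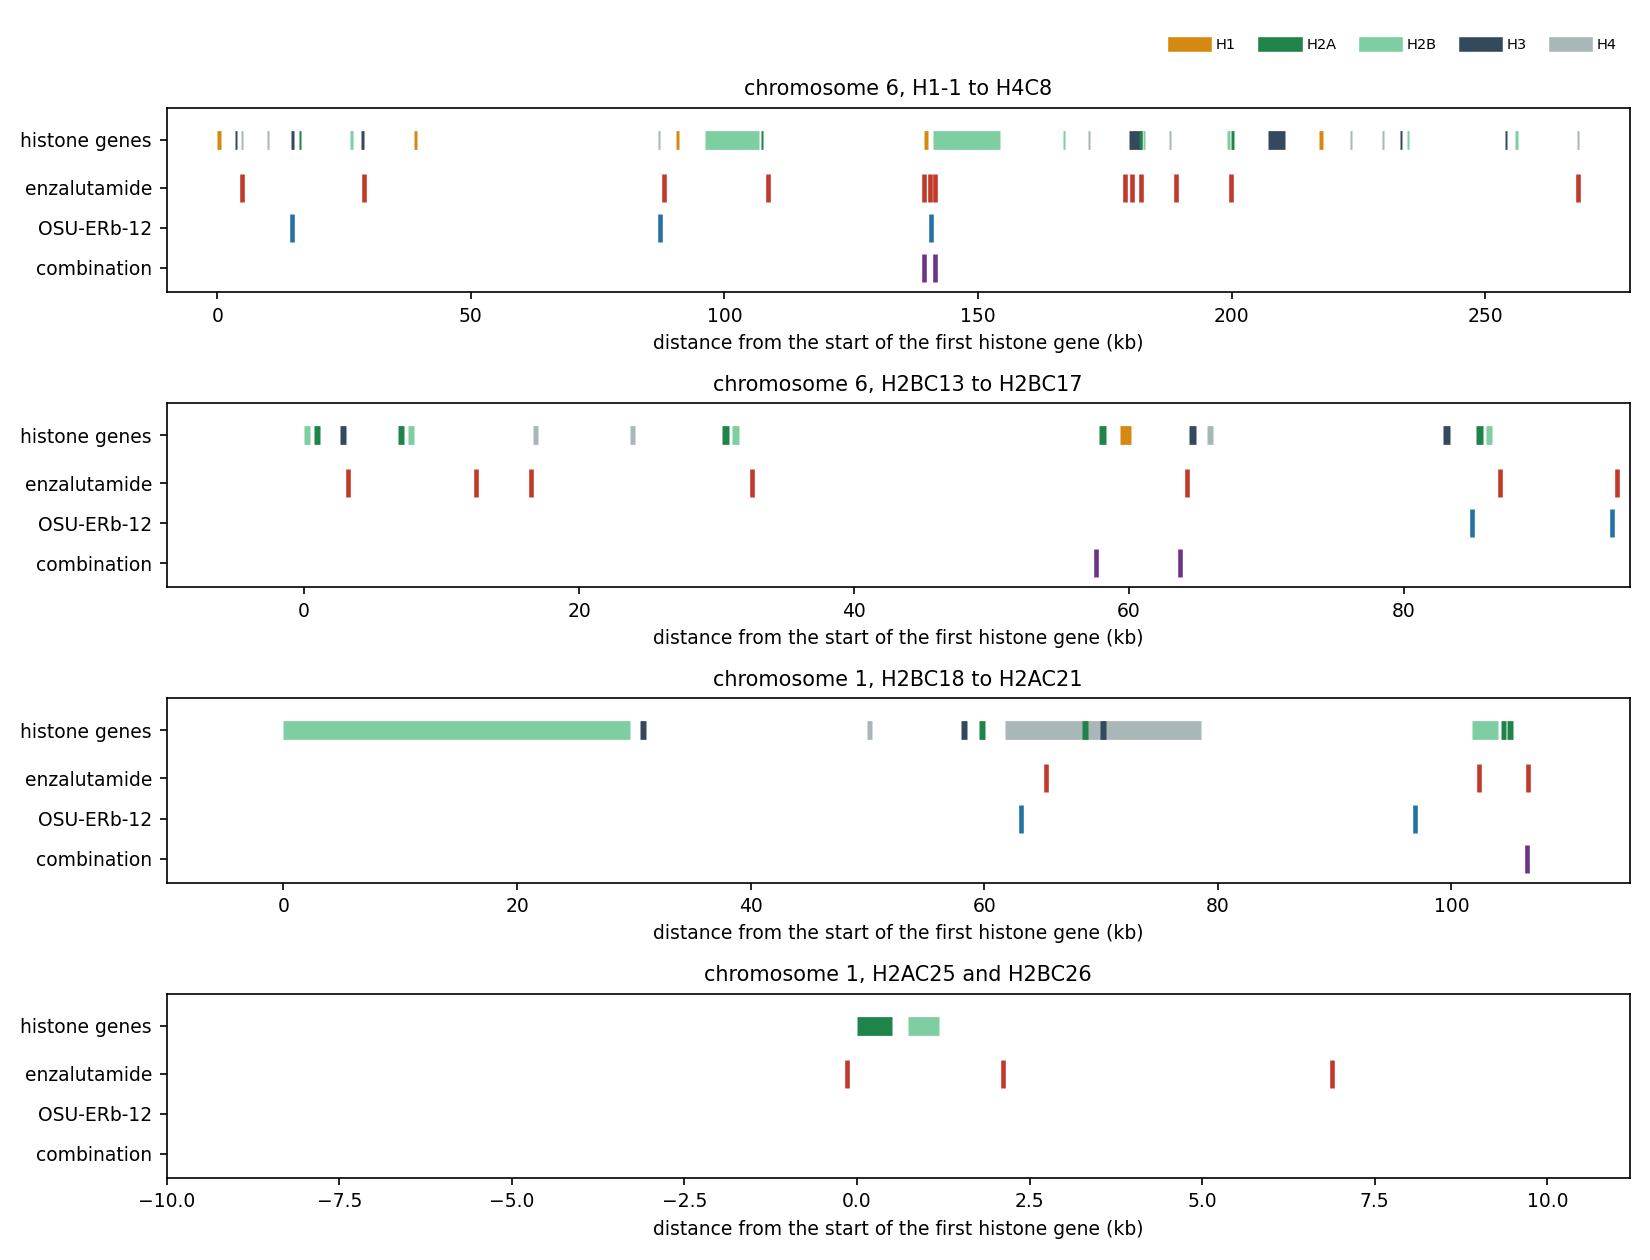
Histone genes (coloured bars by family; very short genes are drawn at least 0.4 kb wide) and the centres of listed regions (ticks, 1 row per list) along 4 clusters, by distance in kb from the first histone gene. In the first panel the stretch before H4C8, at the right, holds no region of any list, and all 3 lists come together only at H1-4 and H2BC5, near the middle.

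The neighbours H1-4, a linker histone gene (26156329 to 26157115), and H2BC5, an H2B gene (26158121 to 26171349), were the only members with gene-end regions in all 3 lists; 0.858% of all protein-coding genes had that. Enzalutamide regions spanned 26156351 to 26156550 at the start of H1-4, 26157451 to 26157650 between the genes, and 26158401 to 26158700 inside H2BC5. The combination list had regions at 26156201 to 26156500 and 26158401 to 26158600, which overlap the first and the third of these. The only OSU-ERb-12 region, at 26157601 to 26157800, overlapped the middle one by its first 50 bp. So the combination list repeated the 2 enzalutamide regions at which OSU-ERb-12 had none, and not the one that both single agents had.

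The 250 bases before the start of H1-4 (RefSeq promoter table, GRCh38.p14, chr6:26156079-26156328, plus strand) are shown because the combination region covers the last 128 of them. Capitals mark an AAACACA element, known as the H1 box, a CCAAT box and TATAAA in either orientation.
H1-4: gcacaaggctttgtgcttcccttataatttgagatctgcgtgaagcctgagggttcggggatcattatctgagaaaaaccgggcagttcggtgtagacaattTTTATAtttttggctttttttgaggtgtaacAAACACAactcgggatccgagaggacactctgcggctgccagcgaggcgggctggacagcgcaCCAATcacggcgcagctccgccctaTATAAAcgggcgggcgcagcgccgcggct
The enzalutamide region begins just inside the gene. The centres of the 2 regions lie inside the gene, 121 bp (enzalutamide) and 21 bp (combination) after its start.

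By family, enzalutamide regions lay at gene ends of 1 of 6 H1 (16.7%), 4 of 17 H2A (23.5%) and 7 of 19 H2B genes (36.8%). For H3 the count was 5 of 13 (38.5%) and for H4 6 of 15 (40%). The share of all protein-coding genes was 28.3%. The family shares rest on 1 to 7 genes each and lie on both sides of it, and families were not compared by a test. The other linker histone genes had no region at a gene end. H1-1, H1-2, H1-5 and H1-6 each had 1 enzalutamide region in the locus, H1-6 also 1 OSU-ERb-12 region, H1-5 also 2 combination regions, and H1-3 had none.

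Head-to-head H2A and H2B genes, with starts 194 to 248 bp apart, formed 11 pairs among the members with an annotated start. A region reached into the DNA between the starts at 2 of the 11 pairs for enzalutamide and at none for the other lists. Those pairs were H2AC7 with H2BC7 and H2BC8 with H2AC8. At H2AC7 (26198784 to 26199293) and H2BC7 (26199516 to 26199988) the enzalutamide region at 26198951 to 26199350 covered most of H2AC7 and 57 of the 222 bases between the starts. At H2BC8 (26216200 to 26216688) and H2AC8 (26216921 to 26217437) the region at 26216901 to 26217100 covered the start of H2AC8 and 20 of the 232 bases. Both shared promoters are printed on the plus strand, from the base after the start of the left gene to the base before the start of the right gene, to show what the regions leave out. Capitals mark CCAAT boxes, the octamer ATTTGCAT, which the factor OCT1 binds at H2B genes, and TATAAA, in either orientation.
H2AC7/H2BC7 (chr6:26199294-26199515): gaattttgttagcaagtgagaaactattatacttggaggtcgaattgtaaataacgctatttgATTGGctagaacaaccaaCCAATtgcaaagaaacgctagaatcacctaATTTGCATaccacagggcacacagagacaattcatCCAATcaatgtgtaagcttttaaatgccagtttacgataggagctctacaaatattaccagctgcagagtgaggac
H2BC8/H2AC8 (chr6:26216689-26216920): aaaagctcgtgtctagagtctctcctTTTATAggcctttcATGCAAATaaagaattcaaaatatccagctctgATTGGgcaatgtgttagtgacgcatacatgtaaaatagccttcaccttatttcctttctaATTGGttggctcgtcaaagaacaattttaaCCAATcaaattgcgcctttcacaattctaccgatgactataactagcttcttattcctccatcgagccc
In the first pair the region covers the leftmost bases, in the second the rightmost, and neither covers a capital letter of the sequence printed.

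Regions of the other pairs lay away from the shared promoter. H2AC25 and H2BC26 on chromosome 1 had an enzalutamide region at each outer end, at 228457051 to 228457400, across the 3' end of H2AC25 and within 1 kb of the start of H2BC26, and at 228459301 to 228459650, 742 bp past H2BC26. H2AC17 and H2BC17 had an OSU-ERb-12 region (27892351 to 27892550) 148 bp past H2AC17, also within 1 kb of H2BC17, and an enzalutamide region (27894351 to 27894550) 459 bp past H2BC17. H2AC1, a testis H2A gene (25726063 to 25726562), had an OSU-ERb-12 region across its 3' end, at 25726051 to 25726300, which is also within 1 kb of its partner H2BC1. H2AC6, the partner of H2BC4, had an enzalutamide region 810 bp past its end (26125501 to 26125700), and H2BC15, the partner of H2AC15, one 790 bp past its end (27839901 to 27840150). In H2BC21 on chromosome 1 an enzalutamide region at 149884851 to 149885300 lay inside the gene model, 1607 bp from its start. H2AC16 (27865317 to 27865798) is the only member with a gene-end region in the combination list alone, at 27865001 to 27865200. It covers 134 of the 250 bases before the start, which hold 3 CCAAT boxes and 1 octamer, in capitals (plus strand, chr6:27865067-27865316).
H2AC16: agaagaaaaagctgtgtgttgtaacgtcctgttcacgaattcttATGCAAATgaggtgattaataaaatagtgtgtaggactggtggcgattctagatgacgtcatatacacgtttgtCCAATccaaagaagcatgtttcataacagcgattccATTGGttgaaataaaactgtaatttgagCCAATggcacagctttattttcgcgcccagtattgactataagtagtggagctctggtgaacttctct
The region covers the first 134 bases of this line, with the octamer and 1 CCAAT box, and leaves the bases next to the start uncovered.

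Among the H3 genes, H3C4 (26196784 to 26199293) had 3 enzalutamide regions at its ends, the largest number of any member in any list. Its gene model has 2 annotated starts. The region at 26197151 to 26197550 covered the downstream start and all 250 bases before it, that at 26198951 to 26199350 lies at the upstream start, which is also the start of H2AC7, and that at 26196001 to 26196200 lay 583 bp past the 3' end. The window before the downstream start is on the minus strand at chr6:26197287-26197536. It carries 2 CCAAT boxes and TATAAA on the opposite strand, in capitals, and is one of the 2 printed windows that a region covers whole.
H3C4: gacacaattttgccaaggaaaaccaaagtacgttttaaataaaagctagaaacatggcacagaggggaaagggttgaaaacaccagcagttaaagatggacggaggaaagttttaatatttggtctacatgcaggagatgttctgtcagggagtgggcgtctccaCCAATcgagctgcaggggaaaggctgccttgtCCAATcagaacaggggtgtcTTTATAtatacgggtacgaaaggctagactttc
H3C3 had an enzalutamide region across its 3' end (26045801 to 26046000), H3C10 one 14 bp past its end (27810551 to 27810750), and H3C1 one that covers the neighbouring H4C1 (26021551 to 26022100). H3C2 had an OSU-ERb-12 region inside its 3' part (26031601 to 26031800). At H3C11 the enzalutamide region (27871601 to 27871800) lay 44 bp outside the gene and the combination region (27871101 to 27871300) 544 bp outside it on the same side, with 300 bp between them.

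Of the H4 genes, 6 of 15 (40%) had an enzalutamide region at a gene end, against 28.3% of all genes. An OSU-ERb-12 region lay there at 1 (6.67%, background 7.88%) and a combination region at none (background 5.51%). The widest histone region of the enzalutamide list, 550 bp, covered H4C1 whole, and the region at 26285151 to 26285500 covered most of H4C8. H4C5 had one 829 bp past its end (26205851 to 26206200), and H4C16 on chromosome 12 one 769 bp past its end (14769751 to 14769950), inside the overlapping gene LOC105369669. H4C3 (26103933 to 26104337) had an OSU-ERb-12 region across one gene boundary (26104201 to 26104450) and an enzalutamide region 613 bp outside (26104951 to 26105150), 500 bp apart.

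H4C11 and H4C12 are shown side by side because their promoters are near copies and only H4C11 has a listed region at a gene end. The enzalutamide region at 27823751 to 27824250 covered all 250 bases before the start of H4C11 (chr6:27823842-27824091, plus strand) and the first part of the gene. At H4C12, whose window lies on the minus strand at chr6:27831561-27831810, no list had a region within 1 kb of a gene end. Its locus held 2 enzalutamide regions. The windows were the same at 245 of 250 bases (98%), and capitals mark the 5 that differ.
H4C11: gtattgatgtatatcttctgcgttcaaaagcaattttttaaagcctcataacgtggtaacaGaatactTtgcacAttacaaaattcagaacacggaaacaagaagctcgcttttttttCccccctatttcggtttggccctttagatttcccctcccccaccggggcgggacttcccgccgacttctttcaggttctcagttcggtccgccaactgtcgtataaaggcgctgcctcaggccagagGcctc
H4C12: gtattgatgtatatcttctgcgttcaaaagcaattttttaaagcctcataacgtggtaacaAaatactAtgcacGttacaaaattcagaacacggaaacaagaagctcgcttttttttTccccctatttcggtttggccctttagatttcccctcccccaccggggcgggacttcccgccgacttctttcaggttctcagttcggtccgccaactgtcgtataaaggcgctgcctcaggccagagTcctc
Both carry GGTCC, the core of the element called site II in H4 promoters, 47 bases before the start, and TATAAA 31 bases before it. Neither element includes a base that differs.

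More histone genes had an enzalutamide region past the 3' end than before the 5' end, the reverse of the order among all genes. Strand came from the RefSeq promoter table, which matched 64 of the 70 members; the others are H4C1, H4C3, H2AC12, H3C11, H3C12 and H2BC12L. A region centre lay within 1 kb past the 3' end at 11 of 64 genes (17.2%), against 2.34% of the 15843 protein-coding genes with a strand. Within 500 bp past the end the count was 4 of 64. Before the 5' end the count was 5 of 64 (7.81%), against 11.3%. The 11 genes were H1-4, H2AC6, H2AC25, H2BC15, H2BC17, H2BC26, H3C1, H3C3, H3C4, H3C10 and H4C16, with centres 31 to 917 bp past the end and a median of 684 bp. Of the 11 regions, that at H4C16 overlapped another gene with a strand, and that at H3C1 overlapped H4C1, which has none in the table. The region past H1-4 was also counted before the start of H2BC5, and that past H2AC25 before the start of H2BC26. For OSU-ERb-12 2 of 64 genes had a region past the end (3.12%, background 1.24%) and 3 before the start (4.69%, background 2.37%). The OSU-ERb-12 regions past H1-4 and H2AC17 were likewise counted before the starts of H2BC5 and H2BC17. The combination list had 0 past the end (background 0.682%) and 1 before the start (1.56%, background 2.03%).

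Past the end of a gene of about 500 bp is also close to its start, so positions were counted from the start as well. Region centres 500 to 1500 bp after a start were found at 12 of 64 histone genes for enzalutamide (18.8%) and at 9.87% of all genes. In the bin from 1000 to 1500 bp the shares were 14.1% and 3.08%, while in the bin from 0 to 500 bp they were 9.38% and 12.2%. From 500 to 1000 bp they were 4.69% and 7.59%. Upstream, from -2000 to -1500 bp, the shares were 9.38% and 1.75%, and from 1500 to 2000 bp after the start 6.25% and 1.51%. Of the 12 bins within 3 kb of the start, the histone share for enzalutamide was the higher in 8, those farther than 1 kb on either side, and the lower in the 4 within 1 kb. The higher share was thus not particular to the stretch past the 3' end, and in clusters a region upstream of one gene can lie beside another. For OSU-ERb-12 the shares at 500 to 1500 bp were 3.12% and 2.73%, and for the combination 0 and 1.29%. These windows were chosen after the positions had been seen, and no test was made.

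**Figure D4:**
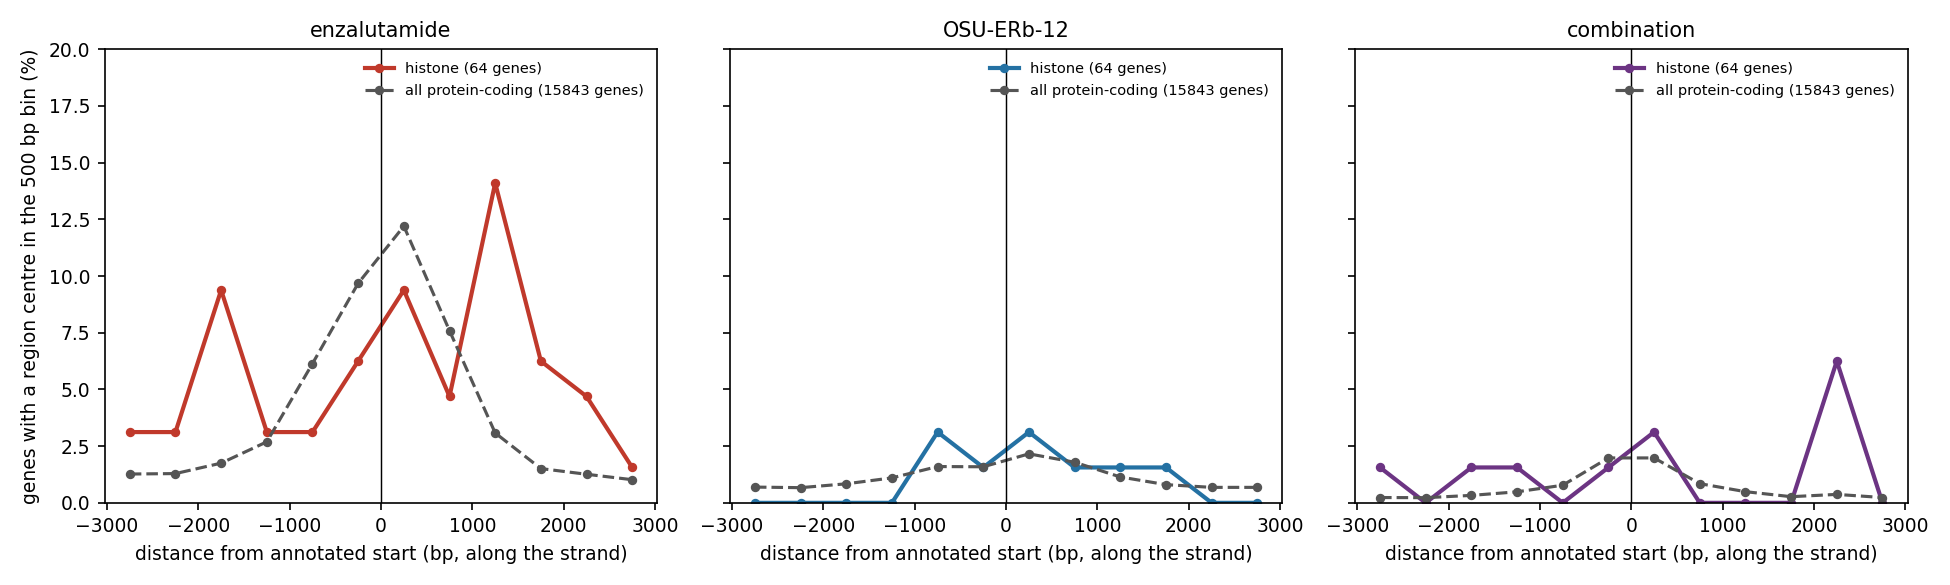
Share of genes (%) with a region centre in each 500 bp bin, by distance from the annotated start along the strand, for 64 histone genes (solid) and 15843 protein-coding genes (dashed); 1 panel per list. For enzalutamide all genes peak in the bin after the start (12.2%), while histone genes have their highest share, 14.1%, at 1000 to 1500 bp; single histone genes make steps of 1.56%.

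Over the promoter window itself, 250 bases before to 50 after the start, the histone genes were at the background. An enzalutamide region overlapped it at 8 of 64 members (12.5%; 12.2% of all genes), an OSU-ERb-12 region at 0 (background 1.74%) and a combination region at 2 (3.12%; background 2.41%). The 8 were H1-4, H2AC7, H2AC8, H2BC7, H2BC8, H3C4, H4C8 and H4C11, and the 2 were H1-4 and H2AC16.

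Promoter elements of the family were present whether or not a region was listed. In the 250 bases before the start, both strands searched, CCAAT was found at all 51 H1, H2A, H2B and H3 genes with a window and at 3 of 13 H4 genes, against 40.2% of all protein-coding genes. TATAAA was found at 43 of 64 histone genes (67.2%; all genes 11.9%), ATTTGCAT at 14 of 18 H2B and 11 of 16 H2A genes (all genes 2.15%), AAACACA at all 6 H1 genes (all genes 5.04%) and GGTCC at 12 of 13 H4 genes (all genes 52.2%). Windows of head-to-head genes overlap, so a shared element counts for both genes. Of the 20 histone genes with a window and an enzalutamide region at a gene end, 80% had CCAAT, 60% TATAAA and 40% ATTTGCAT. Of the 44 without such a region the shares were 86.4%, 70.5% and 40.9%. For these elements the shares with a region were below those without one, the octamer shares being nearly the same. A match of letters is not a bound site.

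Regions in histone loci but beyond 1 kb of a gene end numbered 6 in the enzalutamide list, 4 in the OSU-ERb-12 list and 2 in the combination list. Past H2BC17 an enzalutamide region (27902851 to 27903100) overlapped the tRNA gene TRG-GCC2-3 and an OSU-ERb-12 region (27902501 to 27902700) the tRNA gene TRX-CAT1-7, with 150 bp between them. Histone pseudogenes held an enzalutamide region (H2BC27P, 228464151 to 228464350) and the widest OSU-ERb-12 region, 600 bp (H2BC2P and H2AC2P, 25732051 to 25732650). The combination region of the H4C16 locus (14780901 to 14781200) lay 2898 bp from the replacement histone gene H2AJ, its nearest protein-coding gene.

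Few histone regions were in more than 1 list. Of the 28 enzalutamide regions in histone loci, 3 overlapped a combination region (10.7%, exact Clopper-Pearson 95% interval 2.27 to 28.2; 4.02% over the whole list), which is 3 of the 6 combination regions (50%, 11.8 to 88.2; 16.3% over the whole list). They are the 2 regions at H1-4 and H2BC5 and one on chromosome 1, 1135 bp from H2AC21, at 149889101 to 149889450 for enzalutamide and 149889101 to 149889300 for the combination. Enzalutamide and OSU-ERb-12 shared 1 region, between H1-4 and H2BC5, which is 3.57% of the 28 and 11.1% of the 9 (whole lists 6.17% and 8.72%). OSU-ERb-12 and combination regions overlapped nowhere in these loci (0 of 9 and 0 of 6; whole lists 4.43% and 12.7%). All intervals contain the whole-list share, and the lists are taken to share vehicle samples, which can give overlap by itself.

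Copies of histone genes on chromosome 1 limit what can be read there. The promoter windows of H2AC18 and H2AC19 were identical over 299 bases, those of H3C14 and H3C15 over 296 and those of H4C14 and H4C15 over 300, so 6 of the 13 chromosome 1 genes have an exact copy, against none of the 50 chromosome 6 genes with a window. None of the 6 had a region at a gene end in any list. In the DNA between H2AC18 and H2AC19, which point away from each other and which the long gene model of H4C15 partly spans, the OSU-ERb-12 region (149845701 to 149845950) was centred 3075 bp upstream of H2AC18 and the enzalutamide region (149847851 to 149848050) 3111 bp upstream of H2AC19, at nearly mirrored places. How reads that match more than one place were treated is not given in the sources used here, and the part of this in the chromosome 1 counts was not tested.

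Genes that serve histone supply often had an enzalutamide region at a gene end. Of 32 such genes, 20 (62.5%) had an enzalutamide region there, against 28.3% of all genes, 4 (12.5%) an OSU-ERb-12 region, against 7.88%, and 5 (15.6%) a combination region, against 5.51%. Their median length was 33084 bp. Among 11 genes of the histone locus body and of histone mRNA processing the counts were 6 (54.5%), 1 (9.09%) and 1 (9.09%). SLBP, which binds the stem-loop of histone mRNA, had an enzalutamide region at 1711601 to 1711800 and an overlapping combination region at 1711501 to 1711750 on chromosome 4. LSM11, a subunit of the U7 particle that cleaves histone mRNA, had overlapping enzalutamide and OSU-ERb-12 regions. NPAT, the coactivator that organises the histone locus body, had an enzalutamide region alone (108223101 to 108223350 on chromosome 11). That region lies outside NPAT, which ends at 108222638, and other genes at it are not given here. CASP8AP2, another component of that body, had no region in its locus.

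Among 9 genes of histone gene transcription and S-phase entry the counts were 7 (77.8%), 2 (22.2%) and 3 (33.3%). The shares of all genes were 28.3%, 7.88% and 5.51%. E2F2 had gene-end regions in all 3 lists, HINFP, which binds H4 promoters, in the enzalutamide list (119121401 to 119121600 on chromosome 11) and the combination list (119121351 to 119121650), CCNE1, a cyclin of the G1 to S transition, in the same 2 lists, and CDK2, the kinase partner of that cyclin, in the enzalutamide and OSU-ERb-12 lists. POU2F1, the gene of OCT1, had 3 enzalutamide, 5 OSU-ERb-12 and 2 combination regions in its locus, with an enzalutamide region alone at a gene end. It is a long gene (167220885 to 167427345 on chromosome 1), where the median length of this list was 16470 bp, and a longer locus can hold more regions. Of 12 chaperone genes, 7 (58.3%), 1 (8.33%) and 1 (8.33%) had a region at a gene end. The last 2 shares rest on 1 gene each and are near those of all genes. ASF1B, which hands H3 and H4 to the chromatin assembly factor, had a gene-end region in each list. CHAF1A (4 regions), NASP (3) and SSRP1 (3) were the others with the most enzalutamide regions in the locus.

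Replacement histone genes are mostly expressed outside S phase and make polyadenylated mRNA. H2AZ2, which encodes an H2A.Z variant, had 1 enzalutamide and 2 OSU-ERb-12 regions at its ends. H3-3B, which encodes H3.3, had overlapping regions of the same lists at 75776101 to 75776450 and 75776201 to 75776450 on chromosome 17. H1-10 and H2AZ1 had an enzalutamide region alone at a gene end. H3-3A, the other H3.3 gene, and CENPA, the centromeric H3, had no region of any list in the locus. The genes named are not the whole group, and whether the group differs from the replication-dependent genes was not tested.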

How the data were processed

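The nucleosome-free fraction of the reads comes from ATACSeqQC (per the labels' protocols); the submitters' processing notes name FastQC, Trimmomatic and hg38. No source used here gives the test against vehicle, the caller of the peaks or its cutoff, whether replicates were pooled, the transposase offset or the sign of a difference. The deposited lists hold positions on a 0-based scale, printed here 1-based, and a score of 0 for all regions. List and treatment were joined by the prefix of the sample titles. The OSU-ERb-12 prefix, WT, is not explained by the labels and is also part of the combination prefix, WT.EZ. All OSU-ERb-12 and combination values therefore rest on it. WT could also be read as wild type, which is the genotype label of all samples. Genes, strands and promoter sequences came from RefSeq GRCh38.p14, the same build.

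Regions were counted in Python 3.11.15 (pandas 2.3.3, SciPy 1.17.1) by overlap of at least 1 bp with 1 kb on either side of both gene ends, or with the gene body plus 10 kb; positions along the strand used region centres. Clusters were split where neighbouring members lie over 200 kb apart, or over 1 Mb for the whole chromosome 6 extent. Named are all members with a gene-end region, members with the most regions, and genes of the other lists with gene-end regions in at least 2 treatment lists or the most regions; other named genes were chosen after their values were seen. Members and gene lists were chosen with earlier results of these data known. Counting was tested on simulated data, where all 200 genes given a region were recovered. The growth protocol also names E2 as a treatment, which was not analysed here. Of the replacement histone genes, 1 that meets the naming rule is not reported here.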

Additional observations from a re-analysis of the deposited data

How the results depend on the processing

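Of 90 counts under other settings, 57 stayed within 1.5 times of the count reported and 33 did not. Where 3 counts follow each other, they belong to the enzalutamide, the OSU-ERb-12 and the combination list. With only regions wider than 200 bp, genes with a gene-end region numbered 13, 3 and 1, genes with a region in the locus 27, 13 and 3, distinct regions in the loci 13, 5 and 2, regions in the chromosome 6 extent 32, 8 and 2, and combination regions in the chromosome 1 clusters 0. With 1 kb at gene starts alone there were 14 enzalutamide genes among the 64 with an annotated start, a setting that also drops H4C1, H4C3 and H3C11, which have gene-end regions, and with 2 kb at gene ends there were 8 combination genes. Without a flank the locus counts were 12, 4 and 2, and with the nearest gene alone 22, 7 and 5. A 50 kb flank gave 48 OSU-ERb-12 genes from 16 regions and 39 combination genes from 10. Splitting the chromosome 6 extent at 200 kb left 21, 7 and 4 regions. Regions shared by enzalutamide and OSU-ERb-12 numbered 0 if most of the shorter region had to overlap (at least 50%) and 3 with neighbours within 500 bp. Added after the data were seen, a window of 500 bp past the 3' end gave 4 enzalutamide genes and 1 OSU-ERb-12 gene, and one of 2 kb gave 4 combination genes. Without the 8 members whose promoter has a near-identical copy, the counts of genes with a region at a gene end or in the locus did not move by over 1.5 times; other counts were not rerun. The causes of these differences were not tested beyond what each setting removes or adds.

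No paired analysis was possible because the lists hold no value per sample, and no replicate was left out for the same reason. Depth is unknown, so list lengths are no measure of the size of a response.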
